A study of Homo sapiens with 6 samples.

Results

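The serpins are a family of protease inhibitors and related proteins that share 1 fold, and their genes are named by clade, from SERPINA to SERPINI. Their transcripts were followed here in MDA-MB-231, an established human breast cancer cell line that the labels describe as ER-negative. The first group was treated with an siRNA directed against LSD1 (3 arrays) and the second with a control siRNA (3 arrays). Total RNA was taken at day 6, after 2 rounds of transfection, from 3 biological replicates per group. KDM1A is the gene of LSD1, an enzyme that takes methyl groups off lysine 4 of histone H3. The labels do not say which siRNA sequences were used, and a single target siRNA arm cannot tell loss of LSD1 apart from other effects of that siRNA.

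Members were all genes whose platform symbol is SERPIN followed by a clade letter from A to I and a number, on probe sets with exactly 1 gene symbol. This gave 30 genes on 48 probe sets, out of 19775 genes with such a probe set and 54675 probe sets in all. Another 5 RefSeq symbols of that form were not analysed here. Of the 30 genes, 10 belong to clade A, 11 to clade B, 2 each to clades F and I, and 1 each to clades C, D, E, G and H.

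An inhibitory serpin presents an exposed reactive centre loop as bait. When a serine or cysteine protease cuts the loop, the serpin changes shape and traps the enzyme in a covalent complex, so each molecule is used once. Clade A, C, D, E, F, G and I proteins are mostly secreted and control clotting, fibrinolysis, complement and pericellular proteolysis. Clade B proteins mostly lack a signal peptide and act inside cells. Some members inhibit no protease, among them maspin (SERPINB5), the collagen chaperone HSP47 (SERPINH1) and the hormone carriers SERPINA6 and SERPINA7. In breast tissue maspin is known as a product of myoepithelial cells whose expression is often lost in carcinoma.

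The arrays give a linear signal per probe set. The targeted gene KDM1A had signals of 291, 184 and 228 on the LSD1 siRNA arrays, against 2540, 2493 and 2295 on the control siRNA arrays, a mean that is 9.58% of the control mean (limma adjusted p = 1.46e-08). By an exact permutation test, two-sided, p was 0.1, which is the lowest value possible with 3 arrays per group. Pearson's correlation of log2 values over all genes tested lay between 0.986 and 0.989 for arrays of the same group and between 0.966 and 0.972 for arrays of different groups. Control array 1 stood apart in the ratio of 3' over 5' signal for ACTB, which was 1.74 there, while the other 5 arrays lay between 1.33 and 1.43. Signals of different probe sets are not comparable as levels, so every comparison below is between groups within a probe set. The RNA comes from whole cultures, in which fewer cells of a kind and less RNA per cell cannot be told apart.

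Most of the serpin genes that could be tested passed as higher after LSD1 siRNA. Of the 30 genes, 14 had a mean above the filter on low signals (a mean of log2 values that corresponds to a signal of 28.05) and were tested. Of these 14, 9 rose, 1 fell and 4 did not pass a limma adjusted p of 0.05 over all 13822 genes tested. Over all genes tested, 19.8% passed as higher, 21.3% as lower and 41% in either direction. The median log2 change of the 14 was 0.54, against -0.02 for all genes tested. Here and below a log2 change is on the scale of log2(signal + 15), LSD1 siRNA minus control siRNA, and it understates the change of dim genes. The 9 that rose were SERPINB5, SERPINB7, SERPIND1, SERPINA1, SERPINB8, SERPINI1, SERPINE2, SERPINB1 and SERPINB9, and the 1 that fell was SERPINH1. For 4 of the 9 the log2 change was at least 1, a size reached with a call by 3.23% of all genes tested. Among the 14, the groups did not overlap for these 10 genes, 9 with higher and 1 with lower signals. Over all genes tested the groups did not overlap for 50.4% (24.2% with higher and 26.2% with lower signals). The 10 genes passed limma on the same arrays, so their separation is no further evidence. All 14 tested genes had a control siRNA mean above the filter on its own, so none entered the test only through high LSD1 siRNA arrays.

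**Figure D1:**
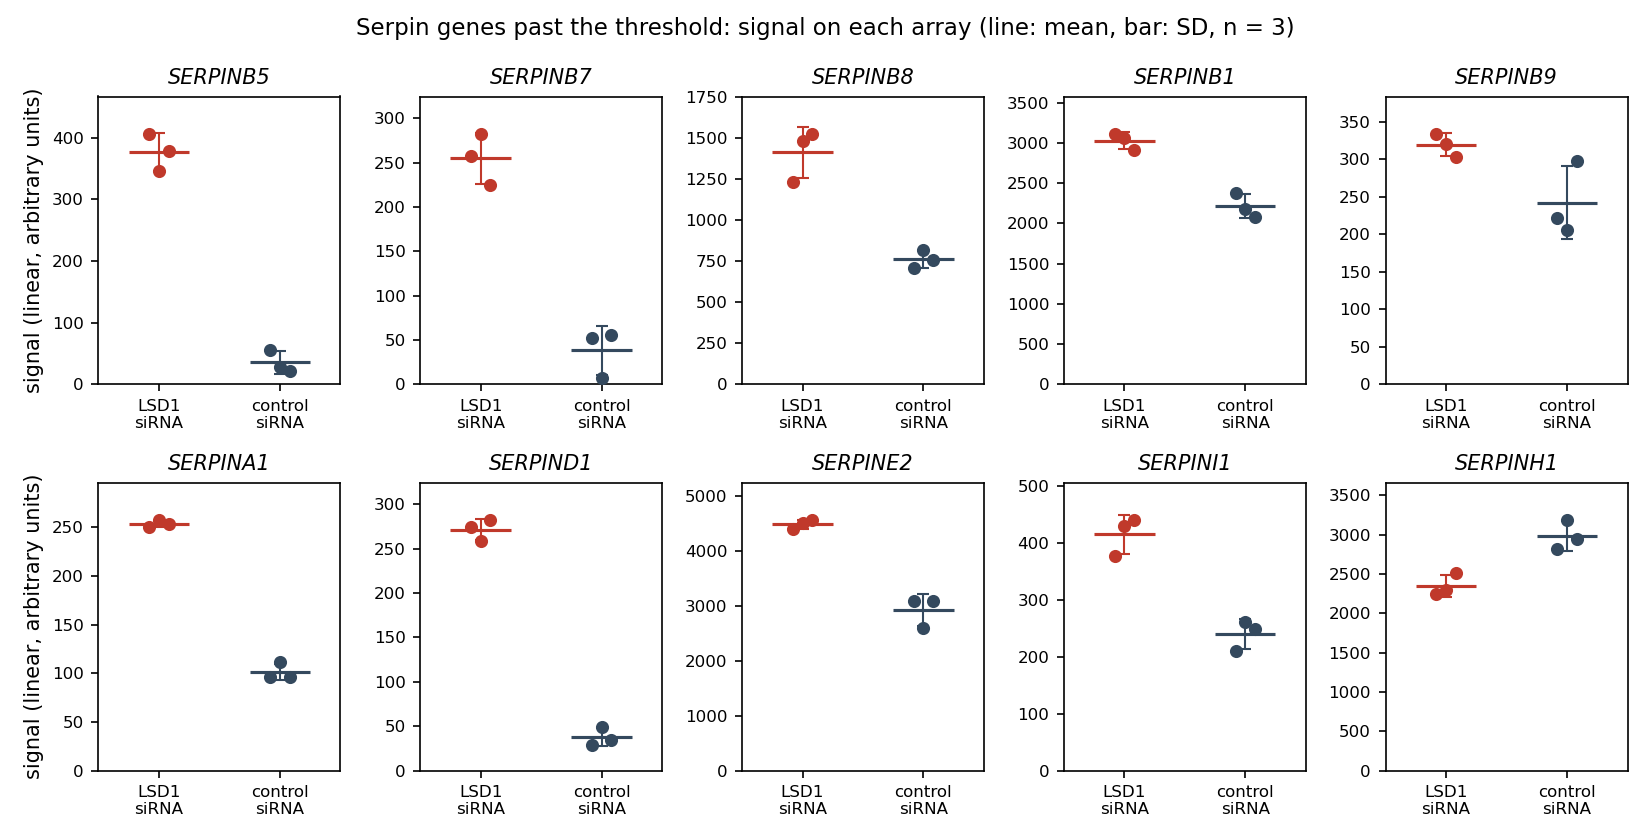
Signal of the 10 serpin genes past the threshold on each array (linear signal, vertical axes from 0 with a scale of their own); points are arrays, horizontal lines group means and bars SD (n = 3), with LSD1 siRNA at the left and control siRNA at the right of each panel. In 9 panels every LSD1 siRNA array lies above every control array, and in SERPINH1 every LSD1 siRNA array lies below.

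**Figure D2:**
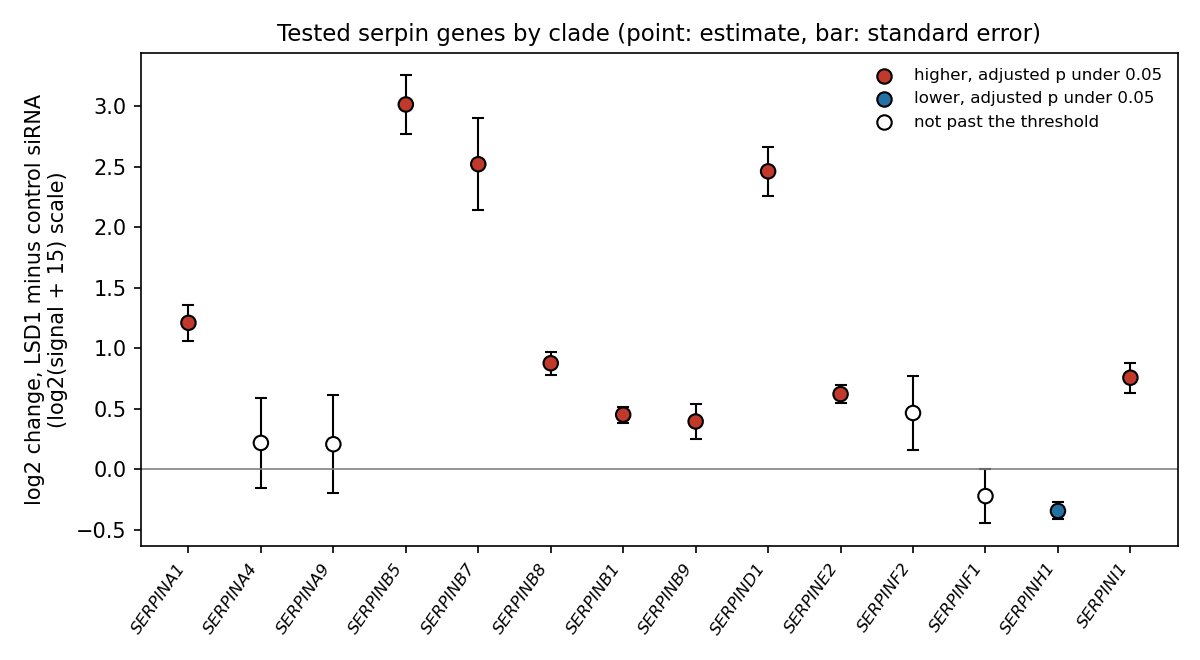
Log2 change (LSD1 siRNA minus control siRNA, log2(signal + 15) scale) of the 14 tested serpin genes in order of clade; points are limma estimates and bars standard errors. SERPINB5 at 3.01, SERPINB7 at 2.52 and SERPIND1 at 2.46 lie highest, and SERPINH1 at -0.34 is the 1 gene below 0 that passed the threshold.

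The intracellular clade B, the largest with 11 genes, had the most members past the test. All 5 that were tested passed as higher, beside 19.8% of all genes tested, and 6 were below the filter. Of the 5, SERPINB9 passed narrowly and kept its call in 6 of 15 alternative settings. SERPINB5, which encodes maspin, had signals of 406, 345 and 378 with LSD1 siRNA and 56.2, 28.4 and 21.7 with control siRNA. The control signals lay near the filter, whereas the LSD1 siRNA signals were about 10.6 times as high on average. The log2 change came to 3.01 (SE 0.24, limma adjusted p = 2.01e-06). SERPINB7, which encodes megsin, a serpin known from kidney mesangial cells and the upper epidermis, had signals of 258, 282 and 225 with LSD1 siRNA, against 51.9, 6.79 and 55.8 with control siRNA. Its control arrays were all dim and uneven, and the log2 change came to 2.52 (SE 0.38, limma adjusted p = 0.000228). SERPINB8, an inhibitor known to act on the proprotein convertase furin, had signals of 1233, 1480 and 1523 with LSD1 siRNA and 708, 816 and 758 with control siRNA. The lowest LSD1 siRNA array lay well above the highest control array, and the log2 change came to 0.88 (SE 0.09, limma adjusted p = 1.81e-05).

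SERPINB5, SERPINB7 and SERPINB8 lie in 1 chromosomal cluster. In the RefSeq table (GRCh38.p14) the order of the 9 measured genes there is SERPINB5, SERPINB12, SERPINB13, SERPINB4, SERPINB3, SERPINB11, SERPINB7, SERPINB10 and SERPINB8. The 3 that rose therefore sit at both ends and in the interior, and the other 6 were below the filter on the probe set that stands for each gene. On those 6 sets the mean signals lay between 5.08 and 23.1 with LSD1 siRNA and between 4.17 and 33.5 with control siRNA. SERPINB4, a squamous cell carcinoma antigen that inhibits chymotrypsin-like proteases, had 23.2, 11.5 and 25.9 with LSD1 siRNA, against 1.93, 1.17 and 9.41 with control siRNA. Its groups did not overlap, but all 6 values were dim, and in the test without a filter it was at 0.88 (limma adjusted p = 0.0574). SERPINB3, a closely related gene, has a brighter second set of the x-suffix type, which was used for a gene only where no other existed. That set had 44.0, 58.2 and 53.7 with LSD1 siRNA and 44.6, 49.0 and 40.2 with control siRNA, and it was at 0.16 without passing (limma adjusted p = 0.684 over all probe sets tested). A probe set annotated to both genes, which the rule left out, had 48.1, 70.5 and 79.3 with LSD1 siRNA and 20.1, 27.5 and 44.1 with control siRNA, a log2 change of 0.84 that did not pass (limma adjusted p = 0.0563 over all probe sets tested). In the test without a filter SERPINB11 was at 0.42, SERPINB3 at 0.15, SERPINB10 at 0.02, SERPINB12 at -0.31 and SERPINB13 at -0.62, none past the threshold. SERPINB13 had 12.8, 5.99 and 35.3 with LSD1 siRNA and 49.6, 27.5 and 23.5 with control siRNA. Its control mean alone was above the filter. Of the 6 nearest coding genes with a named probe set outside the cluster, 3 on each side, 2 rose, 1 fell and 2 were below the filter. Among all genes tested, 19.8% were higher and 21.3% lower. On the SERPINB5 side the neighbour VPS4B rose by 0.68, KDSR was at 0.18 without passing and BCL2 fell by 0.51.

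**Figure D3:**
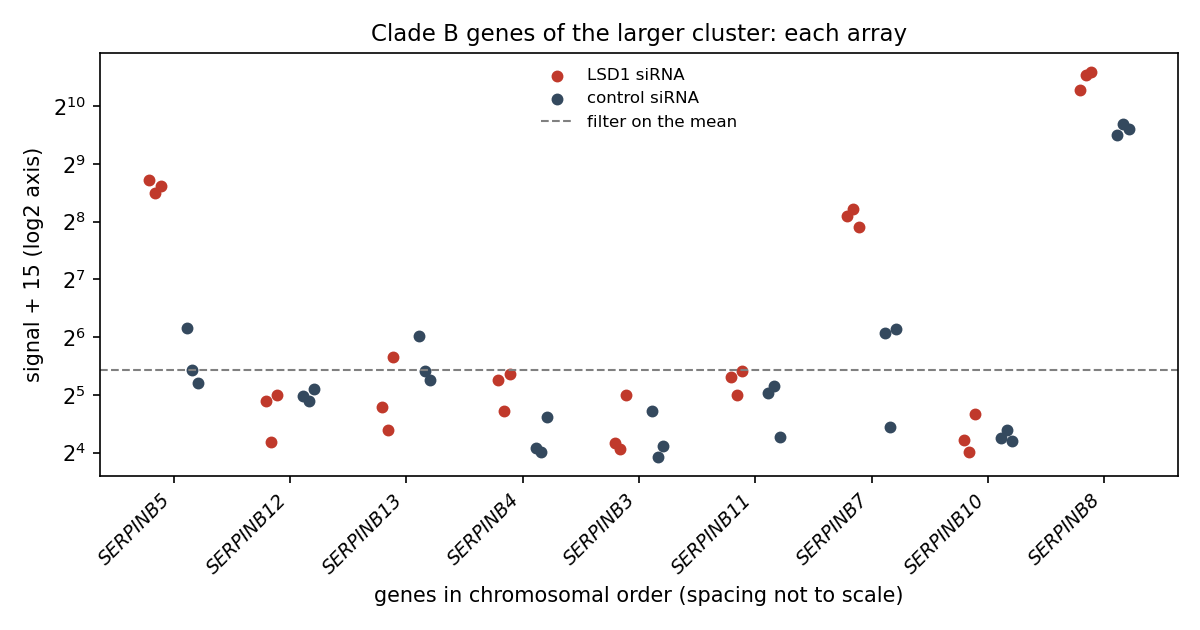
Signal + 15 on a log2 axis for the 9 measured clade B genes of the larger cluster, in chromosomal order with spacing not to scale; each point is an array, LSD1 siRNA left of control siRNA, and the dashed line is the filter on the mean. SERPINB5, SERPINB7 and SERPINB8 show separated groups above the filter in the LSD1 siRNA arrays. The means of the other 6 genes over all arrays lie below it, although the SERPINB13 control mean alone lies above.

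Upstream sequences are shown for the 3 clade B genes that rose in this cluster, for SERPIND1, a gene on another chromosome that rose, and for SERPINH1, which fell. Each is the 250 bases before an annotated start site, 5′ to 3′, from RefSeq on GRCh38.p14. Capitals mark letters that match 1 of 3 motifs searched on both strands, TGANTCA of AP-1, the NF-kappaB motif and TTCNNGAA of the heat shock element. The first and the last of these read the same on both strands, and no matches overlap in the sequences shown. The windows are chr18:63476708-63476957 (+ strand) for SERPINB5, chr18:63777531-63777780 (+ strand) for the third of 3 SERPINB7 start sites, chr18:63969831-63970080 (+ strand) for SERPINB8, chr22:20773863-20774112 (+ strand) for SERPIND1 and chr11:75562003-75562252 (+ strand) for the first of 2 SERPINH1 start sites.
SERPINB5: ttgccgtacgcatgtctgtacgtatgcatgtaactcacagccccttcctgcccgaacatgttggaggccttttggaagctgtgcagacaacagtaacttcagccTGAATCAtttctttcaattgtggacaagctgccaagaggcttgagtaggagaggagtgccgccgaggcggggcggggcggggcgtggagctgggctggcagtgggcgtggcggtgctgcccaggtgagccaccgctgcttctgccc
SERPINB7: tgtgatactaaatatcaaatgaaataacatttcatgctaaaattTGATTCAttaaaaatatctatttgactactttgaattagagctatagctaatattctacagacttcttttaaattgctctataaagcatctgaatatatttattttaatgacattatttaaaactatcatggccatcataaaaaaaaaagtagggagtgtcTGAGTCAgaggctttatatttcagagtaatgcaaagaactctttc
SERPINB8: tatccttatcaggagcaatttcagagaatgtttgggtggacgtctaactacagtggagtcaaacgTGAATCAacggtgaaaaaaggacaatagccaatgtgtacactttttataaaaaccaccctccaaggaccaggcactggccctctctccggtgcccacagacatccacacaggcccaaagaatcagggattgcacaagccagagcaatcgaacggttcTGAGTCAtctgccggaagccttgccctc
SERPIND1: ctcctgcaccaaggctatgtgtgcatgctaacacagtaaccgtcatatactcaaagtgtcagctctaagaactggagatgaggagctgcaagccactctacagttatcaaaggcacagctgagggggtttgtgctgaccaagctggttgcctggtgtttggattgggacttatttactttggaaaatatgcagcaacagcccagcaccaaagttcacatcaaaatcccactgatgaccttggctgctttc
SERPINH1: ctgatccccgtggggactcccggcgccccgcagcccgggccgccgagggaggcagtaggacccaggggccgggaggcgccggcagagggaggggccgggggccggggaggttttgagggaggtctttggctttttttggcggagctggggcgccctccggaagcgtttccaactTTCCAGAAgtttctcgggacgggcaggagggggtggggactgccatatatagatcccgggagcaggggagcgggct

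The AP-1 letters occurred before 4 of the 15 start sites of the 10 genes past the threshold, and before 6.57% of 35116 annotated start sites in the table. These 4 sites belong to SERPINB5, SERPINB7 (2 of its 3 start sites) and SERPINB8. Among the 13 other serpin genes with an upstream entry, which have 18 start sites, 3 sites of 3 genes held the same letters, SERPINB12, SERPINB13 and SERPINI2, whose signals were below the filter. The NF-kappaB letters occurred before 1 of the 15 sites, the first of SERPINB7, and before 1.73% of all sites. The heat shock letters occurred before 1 of the 15, the SERPINH1 site shown, and before 6.62% of all sites. The windows shown for SERPINB7 and SERPINH1 are thus sites with a match. Of the sites not shown, the first of SERPINB7 held no AP-1 letters and the second of SERPINH1 none of the 3 motifs. A match describes the letters only and shows no binding.

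The other clade B genes past the test, SERPINB1 and SERPINB9, lie in a smaller cluster and changed less. SERPINB1, an inhibitor of neutrophil elastase and cathepsin G, had signals of 3110, 3062 and 2906 with LSD1 siRNA and 2372, 2181 and 2082 with control siRNA. The groups were apart on all arrays and the log2 change came to 0.45 (SE 0.07, limma adjusted p = 0.000204). SERPINB9, the intracellular inhibitor of granzyme B, had 334, 321 and 303 with LSD1 siRNA, against 222, 206 and 297 with control siRNA. Its lowest LSD1 siRNA array was close to the highest control array, and the log2 change of 0.40 passed narrowly (SE 0.15, limma adjusted p = 0.0477). It kept its call in 6 of 15 alternative settings. Its limma adjusted p was 0.482 with the mean of all its probe sets (0.17), 0.0900 without the filter and 0.0779 without an intensity trend, and 0.126, 0.161, 0.127, 0.107 and 0.0751 without control replicate 1, control replicate 2 and LSD1 siRNA replicates 1, 2 and 3. Without control replicate 3 it was 0.54 (limma adjusted p = 0.00728).

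Secreted inhibitors from clades A, D, E and I rose as well. SERPIND1, which encodes heparin cofactor II, a thrombin inhibitor made mainly by liver, had signals of 274, 258 and 282 with LSD1 siRNA and 29.2, 49.1 and 34.6 with control siRNA. All control arrays were near the filter, and the log2 change came to 2.46 (SE 0.20, limma adjusted p = 2.39e-06). SERPINA1, which encodes alpha-1 antitrypsin, the main plasma inhibitor of neutrophil elastase, had 250.5, 257 and 253 with LSD1 siRNA and 96.2, 111 and 96.6 with control siRNA. The arrays within each group were close together, and the log2 change came to 1.21 (SE 0.15, limma adjusted p = 5.22e-05). In the chromosomal cluster of clade A, which has 8 measured serpin genes, SERPINA1 was the 1 gene past the test, 2 did not pass and 5 were below the filter. Of the 6 nearest coding genes outside it, 2 rose, 1 fell and 1 was below the filter. Among all genes tested, 19.8% were higher and 21.3% lower. The neighbours IFI27 and IFI27L2 rose by 2.03 and 0.87, and DICER1 was at -0.37.

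SERPINE2 and SERPINI1 encode inhibitors of plasminogen activators. SERPINE2, protease nexin-1, inhibits thrombin, urokinase and tissue plasminogen activator at the cell surface, and had signals of 4402, 4515 and 4562 with LSD1 siRNA, against 3098, 2596 and 3082 with control siRNA. The LSD1 siRNA mean was 1.54 times the control mean, and the log2 change came to 0.62 (SE 0.07, limma adjusted p = 3.99e-05). SERPINI1, neuroserpin, inhibits tissue plasminogen activator and is best known from neurons. It had 376, 429 and 439 with LSD1 siRNA and 210, 261 and 249 with control siRNA, groups that did not overlap, with a log2 change of 0.76 (SE 0.12, limma adjusted p = 0.000441).

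The 1 member that fell was SERPINH1, which encodes HSP47, a chaperone of the endoplasmic reticulum that binds newly made procollagen. Its signals were 2239, 2294 and 2507 with LSD1 siRNA and 2817, 3182 and 2947 with control siRNA. The highest LSD1 siRNA array lay below the lowest control array, and the log2 change came to -0.34 (SE 0.07, limma adjusted p = 0.00187). Of 24 listed genes of collagen modification, folding and export 21 had a probe set and 19 were tested, of which 7 rose, 2 fell and 10 did not pass, with a median of 0.11. The share that fell was 10.5%, against 21.3% of all genes tested, and the share that rose 36.8%, against 19.8%. PLOD2, a lysyl hydroxylase, rose by 1.02, with mean signals of 10277 ± 474 with LSD1 siRNA and 5080 ± 372 with control siRNA (SD, n = 3 each). The prolyl 4-hydroxylase subunit genes P4HA2 and P4HA1 rose by 0.77 and 0.53, FKBP14, a peptidyl-prolyl isomerase, by 0.53 and SEC31A, a COPII coat gene, by 0.32. Averaged over its probe sets, P4HA1 was at -0.33 (limma adjusted p = 0.0357). The 2 that fell were P3H3 (-1.13, with a dim mean of 18.6 ± 3.94 with LSD1 siRNA and 58.4 ± 2.13 with control siRNA, SD, n = 3 each) and CRTAP (-0.20), members of the prolyl 3-hydroxylase family and its complex. The family did not move alike. Chosen after their values were seen, P3H4 rose by 0.56, and P3H1 at 0.12 and P3H2 at -0.02 did not pass. P3H3 had an LSD1 siRNA mean below the filter and entered the test only through its control arrays. The count of 2 was 1 without control replicate 1, control replicate 2, LSD1 siRNA replicate 2 or LSD1 siRNA replicate 3, and 4 without control replicate 3.

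Of the tested members, 4 did not pass. SERPINF2, alpha-2-antiplasmin, the plasmin inhibitor, had a value of 0.47 (limma adjusted p = 0.255), with signals of 96.4, 75.7 and 58.6 with LSD1 siRNA and 82.9, 36.1 and 41.5 with control siRNA. SERPINF1, which encodes the antiangiogenic factor PEDF, had a value of -0.22 (limma adjusted p = 0.478), with 97.6, 60.4 and 92.6 with LSD1 siRNA and 86.4, 104.6 and 104.4 with control siRNA. SERPINA4, kallistatin, and SERPINA9, known from germinal centre B cells, had values of 0.22 and 0.21 (limma adjusted p = 0.682 and 0.725). All 4 had overlapping groups, and standard errors between 0.23 and 0.41 leave changes of moderate size undetectable.

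The remaining 16 members were below the filter on their representative probe set and were not tested as genes; the brighter SERPINB3 set above was tested among probe sets. They were 7 genes of clade A (SERPINA2, SERPINA3, SERPINA5, SERPINA6, SERPINA7, SERPINA10 and SERPINA12), the 6 clade B genes named above, SERPINC1 (antithrombin), SERPING1 (the C1 inhibitor of complement) and SERPINI2. SERPING1 had signals of 9.71, 1.33 and 13.9 with LSD1 siRNA and 1.67, 2.49 and 2.17 with control siRNA. SERPINA3, alpha-1-antichymotrypsin, had 56.1 on LSD1 siRNA array 1 and between 4.37 and 8.76 on the other 5 arrays. Of the 16, 4 had higher signals without overlap (SERPINA2, SERPINB4, SERPINC1 and SERPINI2) and 1, SERPINA10, a cofactor-dependent inhibitor of factor Xa, lower. Over all 5953 genes below the filter, 5.56% were higher and 5.85% lower without overlap. A second SERPINC1 set, also below the filter, went the other way without overlap. It had 3.40, 6.30 and 3.02 with LSD1 siRNA and 7.13, 7.23 and 15.1 with control siRNA. SERPINI2 had 23.9, 27.5 and 35.3 with LSD1 siRNA and 7.09, 2.76 and 16.5 with control siRNA, and SERPINA10 had 3.41, 36.6 and 7.18 with LSD1 siRNA and 39.4, 49.2 and 36.9 with control siRNA. When all 30 members were tested with no filter, 8 rose, 1 fell and 21 did not pass, against 12.9% higher and 13.6% lower of 19775 genes. SERPINB9 was the call lost, SERPINI2 was at 0.92 (limma adjusted p = 0.0529) and SERPINA10 at -1.04 (limma adjusted p = 0.0869).

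Several members have more than 1 probe set, and bright and dim sets of a gene did not always move alike. Of the 48 sets 22 were above the filter, of which 11 rose, 1 fell and 10 did not pass; over all 32747 probe sets tested, 15.3% were higher and 16% lower. SERPINB1 has 3 sets that rose, by 0.45, 0.68 and 0.54, and a dim set with 27.9, 11.6 and 16.8 with LSD1 siRNA, against 41.3, 49.3 and 30.6 with control siRNA. A further SERPINA1 set rose by 1.35, with 124, 180.2 and 186 with LSD1 siRNA and 66.0, 64.9 and 36.2 with control siRNA, and the other 2 were below the filter. The additional sets of SERPINB8 and SERPINE2 were at 0.02 and 0.29 without passing, and their groups overlapped. SERPINB9 has sets at 0.40, 0.44 and -0.32, none past the threshold when all probe sets were tested. Every SERPINB13 set was below the filter and had a lower mean with LSD1 siRNA. The dimmest SERPINB13 set had 0.707, 0.574 and 0.545 with LSD1 siRNA and 2.95, 2.72 and 1.12 with control siRNA, and the groups of the others overlapped. Averaged over all of its sets, SERPINB5 was at 1.73, SERPINA1 at 0.63, SERPINB8 at 0.45 and SERPINB1 at 0.24, which still passed.

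**Figure D4:**
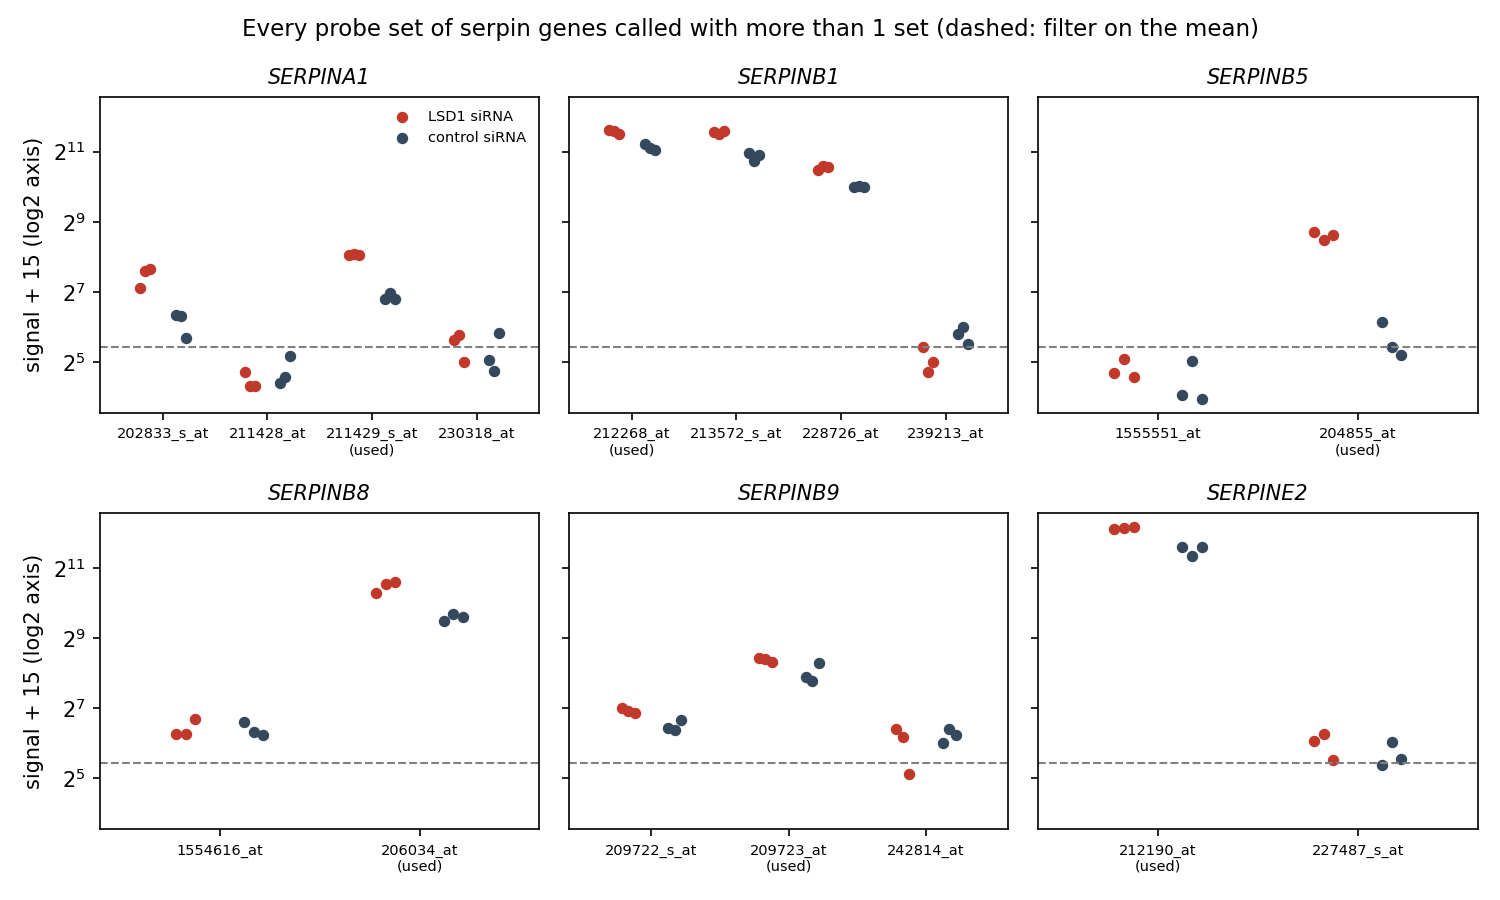
Signal + 15 (log2 axis) on each array for every probe set of the 6 serpin genes past the threshold with more than 1 set; LSD1 siRNA points stand left of control siRNA points, the set that represents the gene is marked as used, and the dashed line is the filter on the mean. The brightest sets show separated groups. The extra sets of SERPINB5, SERPINB8 and SERPINE2 have overlapping groups, with the mean below the filter for SERPINB5 and above it for SERPINB8 and SERPINE2. The dimmest SERPINB1 set is lower with LSD1 siRNA without overlap, and the dimmest SERPINB9 set, with overlapping groups, is at -0.32.

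Of 43 listed proteases that serpins or related inhibitors act on, 42 had a probe set and 26 were tested, of which 13 rose, 1 fell and 12 did not pass, with a median of 0.44. For 3 of the 26 the mean of 1 group was below the filter. Of the other 23, 12 rose, 1 fell and 10 did not pass, with a median of 0.46, where 20.4% were higher and 22.2% lower of all 13124 genes with both group means above the filter. The 5 with the smallest p were CTSS, a lysosomal cysteine protease that rose by 2.61, LGMN, the asparagine-specific protease legumain (0.73), CTSL (0.90), PLAT, tissue plasminogen activator (0.78), and C1S, a complement protease inhibited by SERPING1 (3.38). C1S had 278, 237 and 295 with LSD1 siRNA and 40.8, 3.54 and 4.57 with control siRNA; it passed the filter only through its LSD1 siRNA arrays, and its value ran from 2.14 to 4.73 over the alternatives. The CTSS value was 1.84, 1.81 and 1.84 without LSD1 siRNA replicates 1, 2 and 3, where another CTSS probe set became the brightest; with the probe set held, it lay between 2.54 and 2.68 when any 1 array was left out. PLAT had 1128, 1060 and 1125 with LSD1 siRNA and 653, 643 and 617 with control siRNA, in the same direction as its inhibitors SERPINE2 and SERPINI1. The 1 that fell was CTSV, another cathepsin, at -1.30. Chosen after their values were seen, PLAU, the urokinase gene, rose by 0.49 and FURIN, a target of SERPINB8, by 0.46. The proteases that SERPINB9 and SERPINB1 are known for, GZMB and ELANE, were below the filter, with mean signals of 17.7 and 3.44 with LSD1 siRNA and 15.2 and 25.6 with control siRNA.

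Of 19 tested cofactors and clearance receptors of serpins, 6 rose, 4 fell and 9 did not pass, with a median of 0.15. The shares were 31.6% higher and 21.1% lower, against 19.8% and 21.3% of all genes tested. PROCR, the endothelial protein C receptor gene, rose by 1.30, PLAUR, the urokinase receptor gene, by 1.08, THBD, which encodes thrombomodulin, by 0.48 and ITGAV, an integrin subunit gene, by 0.44. Also chosen after their values were seen, VLDLR, a receptor gene, rose by 0.46 and HSPG2, which encodes a heparan sulfate carrier, by 0.38 with overlapping groups. The 4 that fell were SDC1 (-0.58), SDC2 (-0.45) and SDC4 (-0.26), which also encode heparan sulfate carriers, and LRPAP1 (-0.24), which encodes a chaperone of the LRP receptors. GPC1, a further heparan sulfate carrier gene, was at 0.06 without passing, so these carriers did not move alike. With no intensity trend 2 were lower. Of 31 tested protease inhibitors outside the serpin family, 18 rose, 2 fell and 11 did not pass, with a median of 0.39. SPINK1 and CST1, counted among the 18, had control means below the filter and entered only through their LSD1 siRNA arrays. Of the other 29, 16 rose, 2 fell and 11 did not pass, with a median of 0.37, beside the same 20.4% higher and 22.2% lower of all such genes. PI3, which encodes elafin, rose by 5.67 and SLPI by 2.67; both are elastase inhibitors, as SERPINA1 and SERPINB1 are. TFPI, the tissue factor pathway inhibitor gene, rose by 0.93, PCSK1N by 1.22 and TIMP1 by 0.56. The 2 that fell were PEBP1 (-0.41) and CAST (-0.29), the calpastatin gene, and with the mean of all probe sets 1 was lower.

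**Figure D5:**
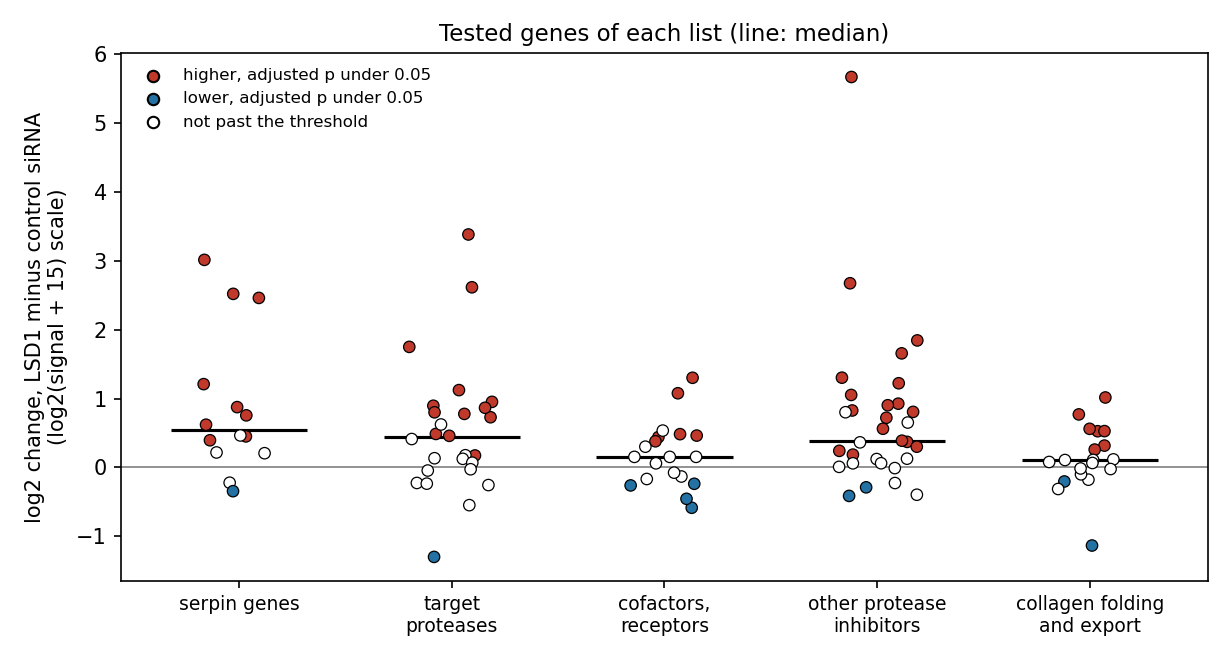
Log2 change (LSD1 siRNA minus control siRNA, log2(signal + 15) scale) of the tested genes of the serpin family and of 4 related lists; each point is a gene, filled where it passed the threshold, and lines are medians. The medians are 0.54 for serpins, 0.44 for target proteases, 0.15 for cofactors and receptors, 0.39 for other protease inhibitors and 0.11 for collagen folding and export.

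Because many serpins mark other tissues, marker genes of 4 other cell types were read on the same arrays. Of 10 hepatocyte markers, 5 were tested and none passed limma, with 1 at an unadjusted p under 0.05. Among the tested ones FGB (0.58) and FGA (0.62) were higher without overlap, as were 24.2% of all genes tested. AHSG, below the filter, was higher without overlap too, with 41.1, 32.2 and 43.6 with LSD1 siRNA and 20.4, 12.6 and 14.6 with control siRNA. Of all 5953 genes below the filter, 5.56% were higher and 5.85% lower without overlap. ALB averaged 31.2 with LSD1 siRNA and 20.5 with control siRNA, with overlapping groups. The hepatocyte sum ran from 373 to 442 with LSD1 siRNA and from 202 to 344 with control siRNA, and its part in the values of SERPINA1 and SERPIND1 was not tested. Of 8 keratinocyte markers with a probe set, 7 were below the filter, KRT5 and KRT14 among them, and KRT10 rose by 0.40. The keratinocyte sum, nearly all KRT10, ran from 8629 to 9247 with LSD1 siRNA and from 6182 to 7586 with control siRNA, and its part in the values of SERPINB5 and SERPINB7 was not tested. Of 11 leukocyte and 10 fibroblast markers, 6 and 5 were tested and none passed limma, with 2 leukocyte markers and 0 fibroblast markers at an unadjusted p under 0.05. The leukocyte sum ran from 551 to 678 with LSD1 siRNA and from 513 to 589 with control siRNA, and the fibroblast sum from 683 to 915 with LSD1 siRNA and from 635 to 789 with control siRNA. The tested leukocyte marker CD3D, at 0.85, was higher without overlap, as were 24.2% of all genes tested. Below the filter, the fibroblast marker LUM had 98.3, 86.3 and 101.0 with LSD1 siRNA and 4.58, 0.595 and 0.518 with control siRNA, POSTN averaged 24.3 with LSD1 siRNA and 3.12 with control siRNA, and FAP 4.71 with LSD1 siRNA and 42.7 with control siRNA, each without overlap. The leukocyte marker MS4A1, also below it, averaged 16.5 with LSD1 siRNA and 31.7 with control siRNA without overlap. Beside these stand the same 5.56% higher and 5.85% lower of genes below the filter. The part of the leukocyte sum in the values of SERPINB1 and SERPINB9 and that of the fibroblast markers in SERPINE2 and SERPINH1 was not tested. Of 8 genes listed as high in the line, MSN rose by 0.60 and ANXA1 by 0.44, and 6 did not pass. Among these 6, VIM was at 27438 with LSD1 siRNA and 32798 with control siRNA. The estrogen receptor gene ESR1 did not pass, at 75.7 with LSD1 siRNA and 59.1 with control siRNA. KRT18 and EPCAM, listed here as low in the line, had clear signals, of 12146 and 1644 with LSD1 siRNA and 16731 and 1658 with control siRNA, and KRT18 fell by 0.45.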

How the data were processed

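RNA from 6 MDA-MB-231 cultures, 3 with LSD1 siRNA and 3 with control siRNA, was labelled from 2.5 ug of total RNA and hybridised to 1 array each. The deposited values are signal intensity on a linear scale, 54675 probe sets per array; GCOS, Affymetrix Expression Console 1.1 and MAS5 are named, per the submitters' processing notes, and the 2% trimmed mean is 500.1 on each array, so scaling is already in the values. No detection calls were used. MAS5 signals are noisy when dim, and scaling removes differences in total RNA per cell.

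Gene names come from the platform annotation: 1 symbol stands beside 41097 probe sets, several beside 1801, and 11777 have no entry. Of the 41097, 41043 matched the RefSeq table (GRCh38.p14), used for names, gene order and upstream sequences. A gene was represented by its set with the highest mean, x-suffix sets only where no other existed. Values were log2(signal + 15), 15 being near the 25th percentile, and genes above the 40th percentile of all probe set means were kept. LSD1 siRNA was set against control siRNA in limma 3.58.1, run in R 4.3.3 (lmFit, eBayes with an intensity trend, two-sided, Benjamini-Hochberg over all genes tested). Members and lists were chosen with earlier results of these data known, so no list was tested as a set. Named are all members, KDM1A, the 5 genes with the smallest p in each related list, and further genes named as chosen after their values were seen, list members that fell and neighbouring genes included. Alternatives covered the constant, the filter, scaling, a fit with no intensity trend, averaging the probe sets of a gene, the replicate number as a block and leaving out each array. The fit was also run on simulated data with the 13822 genes and 6 arrays of this comparison, 50 genes being changed at each size. It recovered 14% of 1.25-fold, 48% of 1.5-fold, 70% of 2-fold and 90% of 3-fold changes, with 4 false calls. Far fewer genes were changed there than the 41% that passed in the real data, so the Benjamini-Hochberg cutoff on p was stricter in the simulation. The percentages therefore describe the simulated setting only. Figures were drawn with matplotlib 3.10.9. The number of arrays limits the precision, and so does a low signal. The standard error was 0.07 for SERPINB1, which had bright arrays, and 0.41 for the dim SERPINA9.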

Additional observations from a re-analysis of the deposited data

How the results depend on the processing

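The count of 9 higher serpin genes lay between 8 and 9 and the count of 1 lower gene stayed at 1 under all 15 alternatives, and 9 of the 10 genes past the threshold passed in every alternative that tested them; the exception was SERPINB9, with the replicate block among the settings that lost it (adjusted p = 0.0574, 8 higher genes). The arrays share only a replicate number: correlations of same-numbered deviations from the group means were 0.01, -0.01 and 0.02, and with the replicate block 2733 of all genes were higher, against 2734 without it. The 11 higher serpin probe sets were 11 or 12. Log2 changes of dim genes moved with the constant and the pooling of probe sets, from 1.72 to 3.16 for SERPINB7, 1.73 to 3.48 for SERPINB5 and 1.77 to 2.85 for SERPIND1.

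Lower genes of the collagen list numbered 1 with no intensity trend and 1 to 4 when 1 array was left out (1 without control replicate 1, control replicate 2 or LSD1 siRNA replicates 2 or 3, and 4 without control replicate 3). Lower cofactors and receptors numbered 2 with no intensity trend, and lower inhibitors outside the family 1 with the mean of all probe sets. P4HA1 turned to -0.33 with that mean. Leaving out 1 array took SERPINA4 from -0.065 to 0.44 and SERPINA9 from -0.32 to 0.48, with no call in any setting. The cause was not tested for these. Among the named genes, leaving out an array changed the representative probe set of 1, CTSS; holding that set was an alternative chosen after seeing the data. That setting aside, of 504 pairs of a named gene and an alternative, 491 kept direction and side, 9 lost the call, all SERPINB9, and 4 reversed. The median log2 change of all genes was -0.02 as reported, -0.01 with quantile normalization and -0.01 with median centring.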
